A study of Homo sapiens with 12 samples.

Results

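Untreated Pa-Tu-8902 and untreated MIA PaCa-2, a pair of human pancreatic ductal adenocarcinoma (PDA) lines, were compared by RNA-seq at baseline. The comparison took every gene that reached 10 counts in 3 or more of the 6 untreated libraries, which left 15593 of the 58676 genes in the deposited table. RNA was sequenced from 12 libraries in the series, 3 of each line without doxycycline (dox) and 3 of each line after 5 days of dox, and the 6 untreated ones are described here. All cells, untreated ones included, carried iDox-shGOT1, a short hairpin RNA against GOT1 that dox induces, and were grown in DMEM with serum. Which of the study's hairpins was used is not given in the sources used here, and each line is represented by a single engineered stock, so a property of the line and of its stock cannot be told apart. The labels do not say that replicates came from separate cultures, so p-values measure the spread between these samples, which may be technical.

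PDA cells differ in how far they keep the epithelial program of the pancreatic duct. Epithelial cells are held together by E-cadherin, claudins and desmosomes and are filled with keratin filaments, whereas mesenchymal cells carry vimentin and secrete fibrillar collagens. Repressors of the ZEB and SNAI families bind E-box elements in the promoters of epithelial genes, and the GRHL2, OVOL and ESRP proteins act on the epithelial side. PDA lines also differ in metabolic enzymes and in tumor suppressors lost from the genome. MIA PaCa-2 is known as a line without E-cadherin and without CDKN2A, and both properties were checked here, because the direction of every result rests on the library titles.

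The titles needed such a check. In the part of a count table published with the paper that was held here, the 6 columns named for Pa-Tu-8902 equalled, after rounding to whole counts, those deposited under MIA PaCa-2 in all 588 genes compared. The deposited titles were followed, and the direction of every result would turn if they were exchanged. Libraries titled MIA PaCa-2 held 0 or 1 count of CDH1 and 0 to 2 counts of CDKN2A, and libraries titled Pa-Tu-8902 held at least 3209 counts of CDKN2A. Total counts were 28507791 to 36334147 in Pa-Tu-8902 against 30195138 to 32391492 in MIA PaCa-2, and a listed 0 is compatible with up to 3 counts in a library of this size, or 0.0826 to 0.105 CPM (counts relative to the library total; counting error only). Of 20 markers of blood, endothelial and erythroid cells, 13 were at or under 3 counts in every library, CD14 was higher in MIA PaCa-2, and the summed level of the list was 2.16 to 3.04 TPM (a level per transcript length) in Pa-Tu-8902 against 5.39 to 6.46 in MIA PaCa-2.

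GOT1, the cytosolic aspartate aminotransferase that the hairpin targets on induction, was read in both lines without dox. Its TPM was 78.3, 81.5 and 83.4 in Pa-Tu-8902 and 44.1, 38.9 and 42.7 in MIA PaCa-2, with no overlap of the groups. The difference was 0.79 ± 0.07 on the log2 scale (Pa-Tu-8902 minus MIA PaCa-2, ± SE, edgeR's quasi-likelihood test, Benjamini-Hochberg adjusted p = 2.75e-07). An exact permutation test of its normalized counts gave a two-sided p of 0.1, the smallest that 3 libraries against 3 allow. GOT2, its mitochondrial counterpart, was 126 to 134 TPM in Pa-Tu-8902 and 143 to 184 TPM in MIA PaCa-2 and did not pass the fold limit.

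Most of the transcriptome differed between the lines. A gene was called when its adjusted p was below 0.01 and its fold at least 1.5, and 9068 of 15593 tested genes (58.2%) were called, 4503 (28.9%) higher in Pa-Tu-8902 and 4565 (29.3%) higher in MIA PaCa-2. The groups of 3 did not overlap for 12738 genes, or 81.7% of those tested. Differences were often large: 3777 genes (24.2%) were called with a fold of at least 4 and 1567 (10%) with a fitted fold of at least 64. The median log2 fold change was -0.03 and the median absolute one 0.84. Counts of list members called in either direction are to be read against 58.2%. Counts higher in Pa-Tu-8902 are to be read against 28.9%, and counts higher in MIA PaCa-2 against 29.3%. The lists were written from general knowledge with earlier results of these data known, and they are described by counts and medians with no test.

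**Figure D1:**
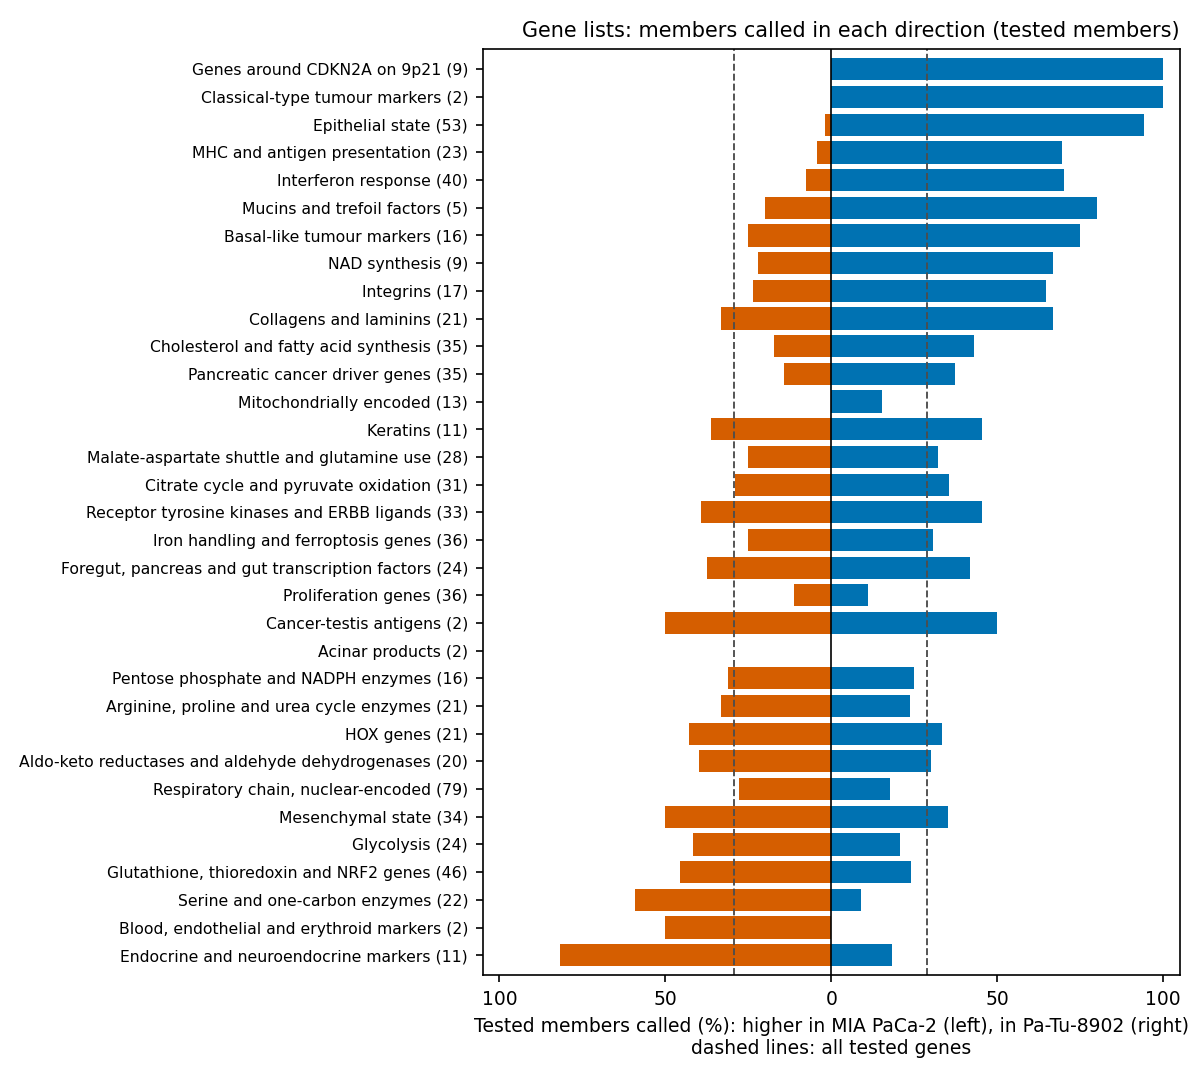
Percent of tested members of the 33 gene lists called higher in MIA PaCa-2 (bars to the left) or in Pa-Tu-8902 (bars to the right), with the number tested beside each name and dashed lines at the shares over all tested genes (29.3% and 28.9%). Epithelial genes lie almost wholly on the Pa-Tu-8902 side (50 of 53), whereas most proliferation genes were not called (28 of 36).

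Epithelial genes were mostly higher in Pa-Tu-8902, and their levels in MIA PaCa-2 ranged from 0 to 108 TPM. Of 54 epithelial genes 53 were tested, and 50 were higher in Pa-Tu-8902 and 1 lower. Their median log2 fold change was 4.95, or 4.84 with the 11 genes at the floor set to their bound, against -0.03 over all genes. The summed TPM of the list was 4690 to 4806 in Pa-Tu-8902 against 382 to 423 in MIA PaCa-2. Exceptions were EHF, an epithelial ETS factor (47.5 and 51.1 TPM), and PERP, a desmosome protein (43.9 and 40.4 TPM), which were not called, and PRRG4, which was higher in MIA PaCa-2 (4.45 and 9.89 TPM). These 3 are named because their values departed from the list.

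CDH1, which encodes E-cadherin and lies at chr16:68737292-68835537 on GRCh38, had 65.8, 70.2 and 60.01 TPM in Pa-Tu-8902 and 0, 0.01 and 0.02 TPM in MIA PaCa-2. The pooled CPM differed 7870 times, with an exact 95% interval of 2180 to 65000 for counting error. EPCAM, an adhesion molecule of epithelial cells, had 543, 553 and 548 TPM against 0.17, 0.08 and 0.17 TPM. ESRP1, a splicing regulator that sets epithelial isoforms, had 121, 124 and 119 TPM against 0.05, 0.02 and 0.4 TPM (log2 fold change 11.29 ± 0.14, adjusted p = 2.52e-15). All 3 were thus high in every Pa-Tu-8902 library and at or near 0 in every MIA PaCa-2 library. ESRP2, the paralog of ESRP1, had 30.1 to 35.1 TPM and at most 0.09 TPM, and GRHL2, a transcription factor of epithelial junction genes, had 38.7 to 44.01 TPM and at most 0.02 TPM. The matriptase gene ST14 (307 to 332 TPM) and the trafficking protein MAL2 (206 TPM in each Pa-Tu-8902 library) were at most 0.12 TPM in MIA PaCa-2.

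Some epithelial genes were lower in MIA PaCa-2 without being lost. ELF3, an epithelial ETS factor, had 51.2, 53.3 and 51.6 TPM in Pa-Tu-8902 and 3.24, 2.11 and 2.82 TPM in MIA PaCa-2. SPINT2, an inhibitor of matriptase, had 1073 to 1097 TPM and 61.4 to 71.4 TPM (log2 fold change 4.05 ± 0.10, adjusted p = 4.83e-13). CLDN4, a tight junction claudin that, like CLDN7, was named after its values were seen, was 195 ± 15 TPM and 108 ± 2.59 TPM (SD, n = 3), while CLDN7 was 167 ± 4.49 TPM and 0.17 ± 0.06 TPM. Claudins were thus not lost together.

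Vimentin showed the reverse. VIM, at chr10:17228241-17237593, had 4.44, 4.49 and 10.5 TPM in Pa-Tu-8902 and 4112, 3531 and 4154 TPM in MIA PaCa-2, a log2 fold change of -9.37 ± 0.29 (adjusted p = 4.30e-12). Replicate 3 of Pa-Tu-8902 held more VIM than the other replicates, and the 3 levels were 0.0916%, 0.105% and 0.23% of the mean MIA PaCa-2 level. The 10 named genes with the largest differences toward MIA PaCa-2 include VIM, the most abundant of them there. In the 3 Pa-Tu-8902 libraries their summed level was 0.172%, 0.188% and 0.292% of that in MIA PaCa-2. Replicate 3 was again highest, but the sum contains VIM and is not a separate observation. Among the others of the 10, EEF1A2 (0.71, 0.52 and 1.25 TPM) and RGS5 (2.47, 1.74 and 3.30 TPM) were also highest in replicate 3. ALDH1A1 (0.91, 0.65 and 0.88 TPM) and DOCK11 (0.51, 0.54 and 0.26 TPM) were not. Whether a trace of one line's RNA in the other's libraries contributed was not tested. The 10 with the largest differences toward Pa-Tu-8902 summed to 0.331% to 0.39% of the Pa-Tu-8902 level in MIA PaCa-2.

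**Figure D2:**
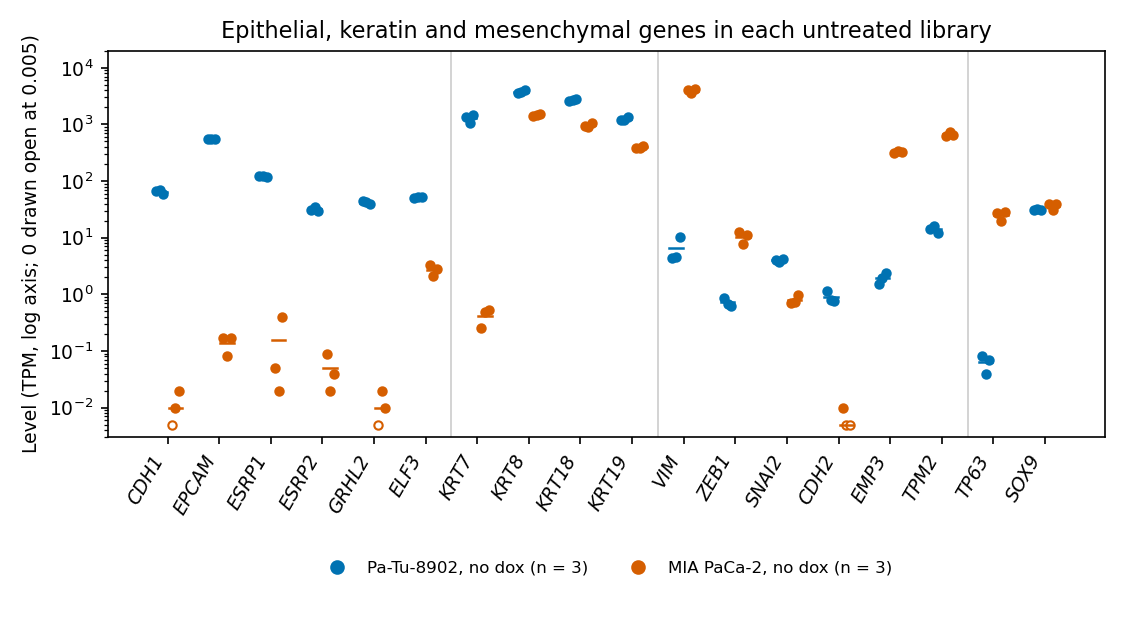
TPM of epithelial and mesenchymal genes on a log axis, 1 point for each of the 3 untreated libraries of a line, with values of 0 drawn as open points at 0.005. EPCAM sits between 543 and 553 TPM in Pa-Tu-8902 and below 0.2 TPM in MIA PaCa-2, and VIM lies between 3531 and 4154 TPM in MIA PaCa-2 and below 11 TPM in Pa-Tu-8902.

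Apart from VIM the mesenchymal genes did not move as a block. Of 56 such genes 34 were tested, and 17 were higher in MIA PaCa-2, 12 higher in Pa-Tu-8902 and 5 not called (median log2 fold change -0.58). The other 22 were not tested, 17 of them with no library over 3 counts, including the repressors ZEB2 and TWIST1 and the stromal markers POSTN, LUM and CDH11. ZEB1, a repressor of epithelial genes, had 12.4, 7.71 and 11.3 TPM in MIA PaCa-2 and 0.88, 0.67 and 0.63 TPM in Pa-Tu-8902 (log2 fold change -4.39 ± 0.15, adjusted p = 8.35e-12). SNAI2, another repressor of the same promoters, was higher in Pa-Tu-8902 (4.12, 3.66 and 4.21 TPM against 0.71, 0.72 and 0.99 TPM). The N-cadherin gene CDH2 was low in both lines and above the floor only in Pa-Tu-8902, at 0.75 to 1.16 TPM. The calcium-binding protein gene S100A4 (3938 to 4481 TPM) and the tropomyosin gene TPM2 (627 to 736 TPM) were higher in MIA PaCa-2, whereas the caveolin gene CAV1 was higher in Pa-Tu-8902 (388 to 411 TPM against 63.5 to 80.1 TPM).

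Collagen chains and their crosslinking enzymes split between the lines, and the genes of this paragraph were named after their values were seen. COL1A2, a chain of type I collagen, was 226 ± 29.7 TPM in MIA PaCa-2 and 0.17 ± 0.29 TPM in Pa-Tu-8902 (SD, n = 3). COL1A1, which encodes the partner chain, was 0.15 ± 0.16 TPM in MIA PaCa-2 and 4.5 ± 1.58 TPM in Pa-Tu-8902, so the 2 chains of the same fibril were higher in different lines. The collagen crosslinker LOXL2 was 129 ± 19.2 TPM in MIA PaCa-2 and 0.13 ± 0.11 TPM in Pa-Tu-8902. TGFBI, a secreted matrix protein, was 259 ± 5.92 TPM in Pa-Tu-8902 and 2.63 ± 0.54 TPM in MIA PaCa-2. THBS1, thrombospondin, was 25.1 ± 1.16 TPM in Pa-Tu-8902 and at most 2 counts in MIA PaCa-2.

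The promoters of the epithelial members were read for the E-box letters that ZEB and SNAI proteins recognize, CACCTG or its reverse complement CAGGTG, in the 250 bases before each start (RefSeq, GRCh38.p14, both orientations). A promoter was found by gene symbol for 10688 of the 15593 tested genes, and 1725 of those (16.1%) held at least 1 such element. The share was 20.5% among genes called higher in Pa-Tu-8902, 14.4% among genes called higher in MIA PaCa-2 and 14.4% among genes not called. It was 48.4% in the epithelial list (15 of 31 members with a promoter) and 13% in the mesenchymal list (3 of 23). Of the genes read in Pa-Tu-8902 only, as defined below, 36 of 108 (33.3%) held the element, and of those read in MIA PaCa-2 only 6 of 66 (9.09%) did. Within 100 bases of the start the shares were 5.61% for all tested genes, 38.7% for the epithelial list and 24.1% for the genes read in Pa-Tu-8902 only. These are descriptions of letters, not of binding.

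CRB3, a polarity protein, AP1M2, an adaptor of epithelial sorting, and MYO5B, a motor of apical recycling, are shown because they held the most elements among the epithelial promoters found. VIM is shown as the counterpart that holds none. The 4 were chosen after their values were seen. CRB3 was 53.7 ± 5.70 TPM in Pa-Tu-8902 and 0.21 ± 0.12 TPM in MIA PaCa-2, AP1M2 was 109 ± 7.58 TPM and 0.08 ± 0.09 TPM, and MYO5B was 25.1 ± 1.26 TPM and 1.16 ± 0.10 TPM (SD, n = 3). The windows run 5′ to 3′ on the gene's strand, up to the base before the start, with the E-boxes in capitals. CRB3 (chr19:6464021-6464270, plus strand) holds 5, AP1M2 (chr19:10587313-10587562, minus strand) and MYO5B (chr18:50195148-50195397, minus strand) hold 3 each, and VIM (chr10:17227991-17228240, plus strand) holds 0.
CRB3: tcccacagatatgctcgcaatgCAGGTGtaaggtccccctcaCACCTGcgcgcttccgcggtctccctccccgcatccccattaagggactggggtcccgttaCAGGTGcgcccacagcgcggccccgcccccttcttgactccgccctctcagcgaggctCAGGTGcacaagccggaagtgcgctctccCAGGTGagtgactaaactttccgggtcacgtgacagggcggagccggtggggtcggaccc
AP1M2: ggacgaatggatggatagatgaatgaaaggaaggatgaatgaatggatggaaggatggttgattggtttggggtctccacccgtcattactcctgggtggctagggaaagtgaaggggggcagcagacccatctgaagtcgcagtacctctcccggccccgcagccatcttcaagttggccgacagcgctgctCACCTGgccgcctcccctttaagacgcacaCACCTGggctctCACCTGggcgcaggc
MYO5B: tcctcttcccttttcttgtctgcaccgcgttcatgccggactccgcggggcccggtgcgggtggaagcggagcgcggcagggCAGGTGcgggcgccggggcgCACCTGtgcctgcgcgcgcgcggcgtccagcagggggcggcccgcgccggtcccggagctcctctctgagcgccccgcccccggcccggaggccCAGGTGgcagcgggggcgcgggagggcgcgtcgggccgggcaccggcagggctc
VIM: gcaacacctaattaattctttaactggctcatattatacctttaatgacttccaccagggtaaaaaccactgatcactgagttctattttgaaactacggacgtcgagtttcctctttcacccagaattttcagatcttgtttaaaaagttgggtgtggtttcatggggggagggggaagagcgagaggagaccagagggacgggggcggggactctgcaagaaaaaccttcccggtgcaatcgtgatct

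Keratins remained in both lines. KRT8 and KRT18, the paired keratins of simple epithelia, were among the abundant transcripts of MIA PaCa-2 as well: KRT8 had 1382, 1438 and 1514 TPM there and 3609, 3682 and 4078 TPM in Pa-Tu-8902, a log2 fold change of 1.35 ± 0.09 (adjusted p = 1.13e-08). KRT18 was 895 to 1054 TPM and 2583 to 2815 TPM, and the ductal keratin KRT19 was 384 to 413 TPM and 1191 to 1367 TPM. KRT7, a further ductal keratin, stood apart with 1328, 1076 and 1443 TPM in Pa-Tu-8902 and 0.25, 0.49 and 0.53 TPM in MIA PaCa-2. Of 19 keratins 11 were tested, 5 were higher in Pa-Tu-8902 against 4 in MIA PaCa-2, with KRT15, a basal-layer keratin, among the latter.

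Transcription factors of the foregut and pancreas followed no single direction. Of 43 listed 24 were tested, and 10 were higher in Pa-Tu-8902, 9 higher in MIA PaCa-2 and 5 not called. FOXA2, a pioneer factor of endoderm, had 12.2, 12.02 and 13.9 TPM in Pa-Tu-8902 and 0.04, 0 and 0 TPM in MIA PaCa-2. GATA6, a factor of the classical PDA subtype, had 3.8, 3.43 and 2.88 TPM and at most 0.05 TPM. TP63, a factor of squamous epithelium, had 27.7, 19.7 and 28.6 TPM in MIA PaCa-2 and 0.04 to 0.08 TPM in Pa-Tu-8902 (log2 fold change -8.60 ± 0.17, adjusted p = 7.05e-14). The levels of FOXA2 and TP63 thus marked the lines in opposite directions. The ductal factor SOX9, at 30.5 to 32.3 TPM and 30.5 to 40.0 TPM, did not pass the fold limit. The pancreatic factor PDX1 was 1.54 to 1.94 TPM in Pa-Tu-8902 and 0.29 to 0.51 TPM in MIA PaCa-2, and HNF4A was too low to be tested.

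Neither line carried the classical tumor markers. Of 24 such genes, which mark gut-like PDA, 18 had no library over 3 counts, and only CTSE and CEACAM6 were tested, both higher in Pa-Tu-8902 and both at 1.63 TPM or less. Of 25 markers of basal-like PDA 16 were tested, 12 were higher in Pa-Tu-8902 against 4 in MIA PaCa-2. Their median log2 fold change was 7.64, or 5.48 with the 7 genes at the floor set to their bound. UCA1, a long noncoding RNA, was 713 to 771 TPM in Pa-Tu-8902 and 137 to 171 TPM in MIA PaCa-2, while the calcium-binding protein gene S100A2 went the other way at 33.2 to 38.9 TPM and 301 to 384 TPM. Acinar enzymes were mostly not detectable at this depth: 18 of 20 were at or under the floor in every library. Of 25 endocrine and neuroendocrine genes 11 were tested and 9 were higher in MIA PaCa-2 (median log2 fold change -3.21). Among them SCG2, a secretory granule protein, was 85.9 to 106 TPM against 22.2 to 24.9 TPM, and PCSK1N, a proprotein convertase inhibitor, was 41.5 to 45.1 TPM against at most 0.06 TPM. INS, GCG and CHGA, the genes of insulin, glucagon and chromogranin A, had at most 3 counts in any library. Of 17 mucins and trefoil factors 5 were tested, with 4 higher in Pa-Tu-8902, among them MUC1 (65.1 to 72.4 TPM against 8.78 to 11.1 TPM), and MUC12 higher in MIA PaCa-2.

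HOX genes, which record position along the body axis, differed within clusters. Of 39 listed 21 were tested, 7 were higher in Pa-Tu-8902 against 9 in MIA PaCa-2, and the 9 listed HOXD genes were at 0 in all 6 libraries. HOXB8 had 158, 132 and 160 TPM in MIA PaCa-2 and 1.64, 1.53 and 1.14 TPM in Pa-Tu-8902 (log2 fold change -6.65 ± 0.12, adjusted p = 2.12e-14). Its neighbor HOXB7 was higher in Pa-Tu-8902, at 69.4, 69.4 and 78.6 TPM against 34.1, 40.0 and 36.0 TPM. Adjacent genes of the cluster were thus listed in opposite directions. The annotated span of HOXB7 (chr17:48607232-48633572) contains HOXB8 (chr17:48611377-48615292) on the same strand, and how reads were divided was not tested. Of 42 cancer-testis antigens only PRAME (6.52 to 8.78 TPM in MIA PaCa-2) and PAGE1 (2.04 to 2.70 TPM in Pa-Tu-8902) were tested.

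Genes of adhesion to the basement membrane were mostly higher in Pa-Tu-8902. Of 21 tested collagens and laminins of the basement membrane and cell surface 14 were higher in Pa-Tu-8902 against 7 in MIA PaCa-2. LAMA3 and LAMB3, chains of an epithelial laminin, were both higher in Pa-Tu-8902. LAMB3 had 145, 154 and 147 TPM in Pa-Tu-8902 and 0.65, 0.59 and 0.78 TPM in MIA PaCa-2. LAMA3 was 77.1 to 89.2 TPM and at most 0.67 TPM. The integrin that binds this laminin is formed by ITGA6, at 246 to 270 TPM and 12.2 to 16.5 TPM, and ITGB4, at 142 to 147 TPM and 10.2 to 13.8 TPM. Of 17 tested integrins 11 were higher in Pa-Tu-8902 against 4 in MIA PaCa-2, and the common subunit ITGB1 (453 ± 13.2 and 431 ± 58.5 TPM) was not called. COL17A1, the hemidesmosomal collagen, was named after its values were seen and was higher in MIA PaCa-2, at 74.7 ± 8.29 TPM against 7.01 ± 0.36 TPM.

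Receptors and ligands of the ERBB system were unequal. TGFA, a ligand of the EGF receptor, had 73.7, 76.3 and 71.2 TPM in Pa-Tu-8902 and 0.01, 0.06 and 0.11 TPM in MIA PaCa-2. EREG, another ligand of the same receptor, had 0.20, 0.11 and 0.23 TPM in Pa-Tu-8902 and 62.8, 50.6 and 59.3 TPM in MIA PaCa-2 (log2 fold change -8.34 ± 0.15, adjusted p = 2.37e-14). Each line thus held a high level of a different ligand. AREG, a further ligand, was higher in Pa-Tu-8902 by 0.76 ± 0.09 on the log2 scale. MET, the receptor of hepatocyte growth factor, had 89.0, 92.1 and 80.8 TPM in Pa-Tu-8902 and 6.74, 6.31 and 6.71 TPM in MIA PaCa-2. Of 33 tested receptor tyrosine kinases and ERBB ligands 15 were higher in Pa-Tu-8902 against 13 in MIA PaCa-2. FGFR1, named after its values were seen, was listed at 0 in every Pa-Tu-8902 library and was 7.95 ± 1.33 TPM in MIA PaCa-2.

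In glycolysis all 24 listed genes were tested, and 5 were higher in Pa-Tu-8902 against 10 in MIA PaCa-2 (62.5% called against 58.2% of all genes). SLC2A1, the glucose transporter GLUT1, had 399, 415 and 420 TPM in Pa-Tu-8902 and 39.9, 32.5 and 43.3 TPM in MIA PaCa-2 (log2 fold change 3.21 ± 0.08, adjusted p = 6.49e-13). The glycolytic enzymes TPI1, ALDOA and PGK1 were higher in MIA PaCa-2, each by 0.62 to 0.67 on the log2 scale. SLC16A3, the lactate exporter MCT4, was named after its values were seen and was 392 ± 2.06 TPM in Pa-Tu-8902 and 28.9 ± 1.69 TPM in MIA PaCa-2. Transcripts for glucose entry and lactate exit were thus higher in Pa-Tu-8902, and those of 3 enzymes between them in MIA PaCa-2.

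The first steps of serine synthesis were almost silent in Pa-Tu-8902. Of 22 tested serine and one-carbon enzymes 13 were higher in MIA PaCa-2 against 2 in Pa-Tu-8902 (median log2 fold change -0.81). PHGDH, the first enzyme of serine synthesis, at chr1:119648411-119744218, had 136, 121 and 148 TPM in MIA PaCa-2 and 0, 0 and 0.03 TPM in Pa-Tu-8902. The ratio of pooled CPM was 15000, with an exact 95% interval of 2690 to 593000. PSAT1, the next enzyme of the pathway, had 114, 96.8 and 113 TPM in MIA PaCa-2 and 0.10, 0.15 and 0.20 TPM in Pa-Tu-8902 (log2 fold change -9.61 ± 0.14, adjusted p = 5.95e-15). PSPH, the last enzyme, was 61.5 TPM on average in Pa-Tu-8902 and 41.6 TPM in MIA PaCa-2 and was not called. CBS, which starts the conversion of homocysteine to cysteine, was named after its values were seen and was 0.12 ± 0.21 TPM in Pa-Tu-8902 and 32.8 ± 4.05 TPM in MIA PaCa-2. Its copy CBSL, also named after its values were seen, averaged 0.04 TPM in Pa-Tu-8902 and 26.4 TPM in MIA PaCa-2. How reads were divided between CBS and CBSL was not tested. Thymidylate synthase, TYMS, was 116 to 119 TPM and 402 to 418 TPM.

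Nitrogen handling showed the opposite pattern in glutamine synthesis. GLUL, glutamine synthetase, had 253, 253 and 234 TPM in Pa-Tu-8902 and 0.76, 1.32 and 1.29 TPM in MIA PaCa-2 (log2 fold change 7.60 ± 0.11, adjusted p = 5.60e-15). SLC7A5 and SLC3A2, which together form the LAT1 transporter of large amino acids, were also higher in Pa-Tu-8902: SLC7A5 had 1049, 1111 and 1112 TPM against 109, 83.3 and 112 TPM, and SLC3A2 was 833 to 916 TPM against 120 to 132 TPM. Of 28 tested genes of the malate-aspartate shuttle and glutamine use, 9 were higher in Pa-Tu-8902, 7 were higher in MIA PaCa-2 and 12 were not called. Shuttle enzymes showed smaller differences, with MDH2 lower in Pa-Tu-8902 by 0.65 ± 0.08 on the log2 scale and the malic enzyme ME1, at 23.4 to 24.3 TPM and 14.5 to 17.8 TPM, under the fold limit. Of the mitochondrial malic enzymes, named after their values were seen, ME3 was 46.1 ± 3.17 TPM in Pa-Tu-8902 and was listed at 0 in MIA PaCa-2, and ME2 was 21.01 ± 0.89 TPM and 82.1 ± 10.1 TPM. ASS1, argininosuccinate synthase, had 58.1, 63.95 and 69.0 TPM in Pa-Tu-8902 and 27.8, 26.7 and 26.4 TPM in MIA PaCa-2. Of 21 tested arginine, proline and urea cycle enzymes 5 were higher in Pa-Tu-8902 against 7 in MIA PaCa-2 (57.1% called against 58.2%).

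**Figure D3:**
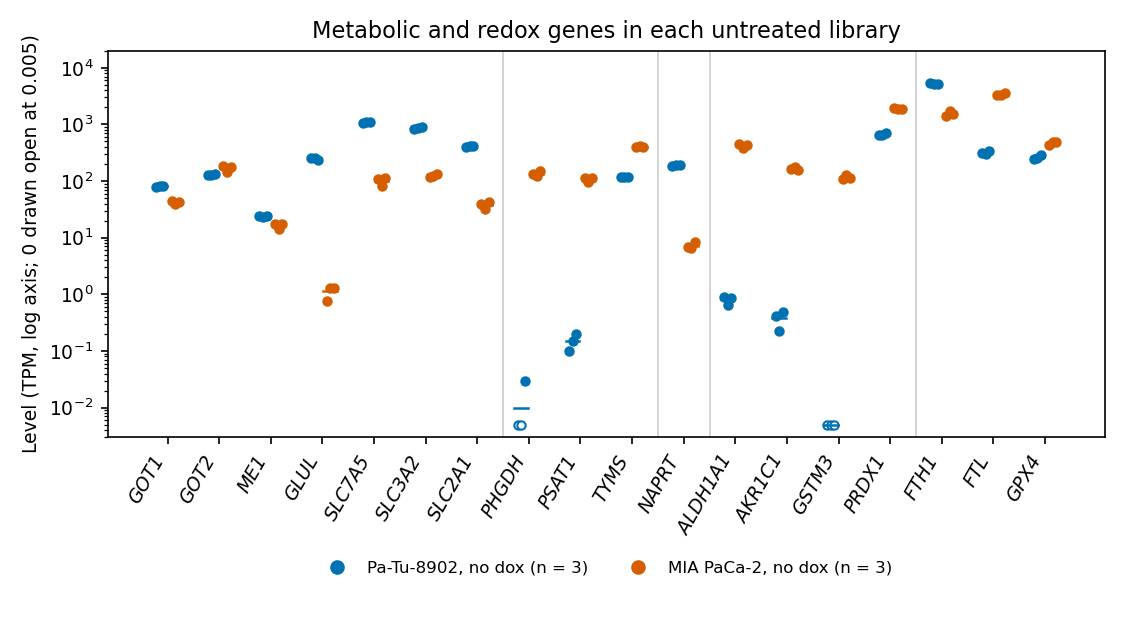
TPM of metabolic genes on a log axis, 1 point for each of the 3 untreated libraries of a line, with values of 0 drawn as open points at 0.005. PHGDH and PSAT1 lie above 90 TPM in MIA PaCa-2 and at or below 0.2 TPM in Pa-Tu-8902, while GLUL lies above 230 TPM in Pa-Tu-8902 and below 2 TPM in MIA PaCa-2.

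Genes of the citrate cycle and respiratory chain did not differ as groups in a single direction. In the citrate cycle 11 of 31 were higher in Pa-Tu-8902 against 9 in MIA PaCa-2 (64.5% called against 58.2% of all genes). In the nuclear-encoded respiratory chain 14 of 79 tested genes were higher in Pa-Tu-8902 against 22 in MIA PaCa-2 (45.6% called against 58.2%), and of 13 mitochondrially encoded genes only MT-ND3 and MT-ND6 were called. Subunits of succinate dehydrogenase differed in opposite directions. SDHC, its membrane anchor, had 27.0, 23.6 and 29.8 TPM in Pa-Tu-8902 and 358, 331 and 351 TPM in MIA PaCa-2 (log2 fold change -3.84 ± 0.08, adjusted p = 1.12e-13). SDHD, the partner anchor, had 235, 251 and 244 TPM against 74.9, 73.3 and 76.2 TPM, and SDHA and SDHB were not called. SDHC has processed pseudogenes, and how its reads were divided among such copies was not tested. Of 16 pentose phosphate and NADPH enzymes 4 were higher in Pa-Tu-8902 against 5 in MIA PaCa-2 (56.2% called against 58.2%). For the NADPH enzymes IDH1 and IDH2 the directions also differed, with IDH1 higher in Pa-Tu-8902 by 0.62 ± 0.07 and IDH2 lower by 1.09 ± 0.08 on the log2 scale.

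Of 46 tested genes of glutathione, thioredoxin and the NRF2 response, 21 were higher in MIA PaCa-2 against 11 in Pa-Tu-8902. SLC7A11, the cystine importer, had 7.89, 8.94 and 7.29 TPM in Pa-Tu-8902 and 2.43, 1.95 and 2.68 TPM in MIA PaCa-2. GPX4, the peroxidase that reduces lipid peroxides, was lower in Pa-Tu-8902, at 244, 255 and 295 TPM against 439, 493 and 483 TPM (log2 fold change -0.89 ± 0.10, adjusted p = 2.48e-06). NQO1, a quinone reductase and NRF2 target, was 400 to 419 TPM and 674 to 684 TPM, and the peroxiredoxin PRDX1 was 661 to 714 TPM and 1849 to 1918 TPM. The glutathione transferase gene GSTM3 had 111, 129 and 111 TPM in MIA PaCa-2 and was listed at 0 in Pa-Tu-8902, at least 450-fold lower against a floor of 3 counts per library. The importer transcript was thus higher in Pa-Tu-8902 and the peroxidases named here in MIA PaCa-2, whereas TXN, thioredoxin, was higher in Pa-Tu-8902 by 0.98 ± 0.11 on the log2 scale.

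Of 20 tested aldo-keto reductases and aldehyde dehydrogenases 6 were higher in Pa-Tu-8902 against 8 in MIA PaCa-2. ALDH1A1, a retinaldehyde dehydrogenase, had 451, 379 and 427 TPM in MIA PaCa-2 and 0.91, 0.65 and 0.88 TPM in Pa-Tu-8902, a log2 fold change of -9.26 ± 0.11 (adjusted p = 2.52e-15). ALDH1A3, which catalyzes the same reaction, was higher in Pa-Tu-8902, at 332 to 422 TPM against 81.1 to 96.2 TPM, so each line held a different isozyme at its higher level. The aldo-keto reductase AKR1C1 was 156 to 175 TPM in MIA PaCa-2 and at most 0.48 TPM in Pa-Tu-8902, where reads may be shared with its near-identical paralogs.

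The ferritin subunits were inverted. FTH1, the heavy chain that oxidizes iron, had 5368, 5144 and 5269 TPM in Pa-Tu-8902 and 1436, 1694 and 1539 TPM in MIA PaCa-2. FTL, the light chain, had 308, 305 and 337 TPM in Pa-Tu-8902 and 3295, 3301 and 3533 TPM in MIA PaCa-2 (log2 fold change -3.46 ± 0.09, adjusted p = 5.17e-13). Both genes have many processed pseudogenes, so the division of their reads is uncertain. LCN2, a siderophore-binding lipocalin, was 117 to 126 TPM in Pa-Tu-8902 and at most 0.6 TPM in MIA PaCa-2, and TFRC, the transferrin receptor, was not called (170 to 191 TPM and 117 to 154 TPM). Of 36 tested genes of iron handling and ferroptosis 11 were higher in Pa-Tu-8902 against 9 in MIA PaCa-2. The share called, 55.6%, was near the 58.2% of all genes. ACSL4, which supplies the lipids that are peroxidized, was 11.9 to 13.1 TPM and 13.9 to 17.9 TPM and was not called.

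In sterol and fatty acid synthesis 15 of 35 genes were higher in Pa-Tu-8902 against 6 in MIA PaCa-2 (60% called against 58.2%). The sterol enzymes FDFT1 (307 to 308 TPM against 100 to 110 TPM) and DHCR7 (155 to 164 TPM against 31.0 to 44.8 TPM) were higher in Pa-Tu-8902. SREBF1, a regulator of lipid synthesis, was higher in MIA PaCa-2, at 141 to 189 TPM against 62.1 to 78.0 TPM. In NAD synthesis 6 of 9 tested genes were higher in Pa-Tu-8902, among them NAPRT, which makes NAD from nicotinic acid, at 182, 191 and 190 TPM against 6.80, 6.66 and 8.34 TPM. NAMPT, which salvages nicotinamide, was 54.6 TPM on average in Pa-Tu-8902 and 60.8 TPM in MIA PaCa-2 and was not called.

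Genes of the interferon response were read at higher levels in Pa-Tu-8902. Of 40 tested 28 were higher in Pa-Tu-8902, 3 were higher in MIA PaCa-2 and 9 not called, with a median log2 fold change of 2.27. ISG15, a ubiquitin-like interferon product, had 200, 216 and 251 TPM in Pa-Tu-8902 and 9.34, 13.7 and 12.01 TPM in MIA PaCa-2 (log2 fold change 4.17 ± 0.15, adjusted p = 1.91e-11). IFIT1, an RNA-binding antiviral protein, was 63.7 to 66.1 TPM and 12.8 to 14.1 TPM. The membrane proteins IFITM1 (52.4 to 54.8 TPM against 88.9 to 119 TPM) and IFITM2 (18.8 to 24.2 TPM against 90.6 to 99.2 TPM) were the other way around, with MX2 as the third gene of that direction. IRF7, a regulator of interferon genes, and XAF1, named after their values were seen, were listed at 0 in MIA PaCa-2 and were 9.38 ± 1.88 TPM and 15.5 ± 1.22 TPM in Pa-Tu-8902.

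Antigen presentation had a like direction. Of 23 tested genes 16 were higher in Pa-Tu-8902 and 1, ERAP2, in MIA PaCa-2. B2M, the light chain of class I, had 1163, 1135 and 1210 TPM in Pa-Tu-8902 and 558, 523 and 514 TPM in MIA PaCa-2. CD74, the invariant chain of class II, had 148, 147 and 165 TPM in Pa-Tu-8902 and 0.10, 0 and 0.05 TPM in MIA PaCa-2, a ratio of pooled CPM of 3900 with an exact 95% interval of 1330 to 18900. Class II chains were much lower than CD74, with HLA-DRA, named after its values were seen, at 2.37 ± 0.56 TPM in Pa-Tu-8902. Reads of the polymorphic HLA genes may align unequally to the reference, which was not tested.

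Genes read in 1 line and silent in the other were defined as those with a mean of at least 10 TPM in the one and no library over 3 counts in the other. Every library of the line that read the gene also had to exceed 10 counts. There were 169 such genes in Pa-Tu-8902, which took 0.899% to 0.908% of its TPM, and 104 in MIA PaCa-2, which took 0.34% to 0.383%. Silence was set by counts. USP41, named after its values were seen, met the rule at 37.4 TPM in Pa-Tu-8902 against 5.25 TPM, with at most 16 and 3 counts. In bulk samples, fewer cells of a type and less RNA per cell cannot be told apart.

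The most abundant of them in Pa-Tu-8902 was CALB1, a calcium-binding protein better known from neurons, with 1327, 1379 and 1255 TPM against 0.06, 0.09 and 0.14 TPM. ARHGDIB, an inhibitor of small GTPase cycling that is typical of blood cells, followed with 1261, 1251 and 1328 TPM against 0, 0.06 and 0 TPM. Both exceeded 1200 TPM in each Pa-Tu-8902 library. MFAP5, a microfibril protein, had 203, 209 and 203 TPM and CST6, a cystatin, 168, 160 and 186 TPM, and both were listed at 0 in MIA PaCa-2, at least 1440-fold and 605-fold lower. Others among the first 10 were LINC02582, CDKN2A, ANXA3, CD74 and C6orf15.

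The most abundant gene read in MIA PaCa-2 only was ADIRF, a regulator of adipogenesis, with 247, 262 and 268 TPM against 0.10, 0 and 0 TPM. The metallothionein MT1G (167 to 192 TPM), the neuropeptide galanin gene GAL (141 to 146 TPM) and PHGDH came next, then NT5C3B, GSTM3, LARP6, C16orf45, SVIL-AS1 and PYGL, the liver glycogen phosphorylase (69.7 to 83.2 TPM). The TPM of SVIL-AS1 varied among replicates, at 77.5, 31.3 and 190, while its counts were alike, at 488, 443 and 447. Why its TPM moved was not tested. It is named as an antisense gene and annotated as a transcribed unprocessed pseudogene. The libraries keep strand, but whether the counting used it was not tested.

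Some of the largest differences were in genes read in both lines. Among called genes averaging 100 or more normalized counts, with over 10 counts in every library, ANO1, a chloride channel, had the largest difference toward Pa-Tu-8902 (211 to 236 TPM against 0.26 to 0.53 TPM), followed by the phosphatase DUSP4, LAMB3, MYO5C and F3, the tissue factor of coagulation (151 to 169 TPM against 0.57 to 0.69 TPM). UNC13D, ABLIM3, FAM84B and LAMA3 were also among the first 10, at log2 fold changes from 7.98 to 7.71. Toward MIA PaCa-2, VIM and ALDH1A1 were followed by RGS5, EREG and EEF1A2. RGS5, a regulator of G protein signaling known from pericytes, was 304 to 364 TPM in MIA PaCa-2 and 1.74 to 3.30 TPM in Pa-Tu-8902. EEF1A2, a translation factor of muscle and neurons, was 212 to 252 TPM in MIA PaCa-2 and 0.52 to 1.25 TPM in Pa-Tu-8902. KLK7, DOCK11, SERPINA3, EMP3 and MMP1 completed the 10, at log2 fold changes from -8.15 to -7.25.

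The tumor suppressor CDKN2A was part of a silent block. CDKN2A, at chr9:21967752-21995301, had 173, 180 and 205 TPM in Pa-Tu-8902 and 0, 0.3 and 0 TPM in MIA PaCa-2, a ratio of pooled CPM of 5590 (exact 95% interval 1550 to 46200). MTAP, an enzyme of methionine salvage next to it, had 115, 110 and 110 TPM in Pa-Tu-8902 and 1 count in each MIA PaCa-2 library. CDKN2B and KLHL9, at 9.39 and 11.8 TPM on average in Pa-Tu-8902, were listed at 0 in MIA PaCa-2, at least 148-fold and 433-fold lower, and FOCAD (11.0 TPM) held at most 2 counts in any library there. From MLLT3 (from chr9:20341669) to DMRTA1 (to chr9:22455740), over 2.11 Mb, GENCODE release 44 places 64 genes of the deposited table, and 11 of them had over 10 counts in every Pa-Tu-8902 library. None had over 3 counts in any MIA PaCa-2 library, and the 64 together held 3 to 5 counts in MIA PaCa-2 libraries and 12627 to 15977 in Pa-Tu-8902 libraries. The nearest genes with over 10 counts in every MIA PaCa-2 library were AL158206.1 on the lower side, at -2.51 Mb from CDKN2A (0.493 TPM), and CAAP1 on the upper side, at 4.87 Mb (14.9 TPM in each line). The interferon alpha genes between MLLT3 and DMRTA1 were listed at 0 in both lines. Between DMRTA1 and CAAP1 lies TUSC1 (chr9:25676969-25678444), named after its values were seen, with 12.6, 13.4 and 15.3 TPM in Pa-Tu-8902 and 0 counts in every MIA PaCa-2 library. With TUSC1 the run of consecutive tested genes higher in Pa-Tu-8902 numbered 12 and reached from chr9:20341669 to chr9:25678444. DNA was not measured, and whether the block is deleted in MIA PaCa-2 was not tested.

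**Figure D4:**
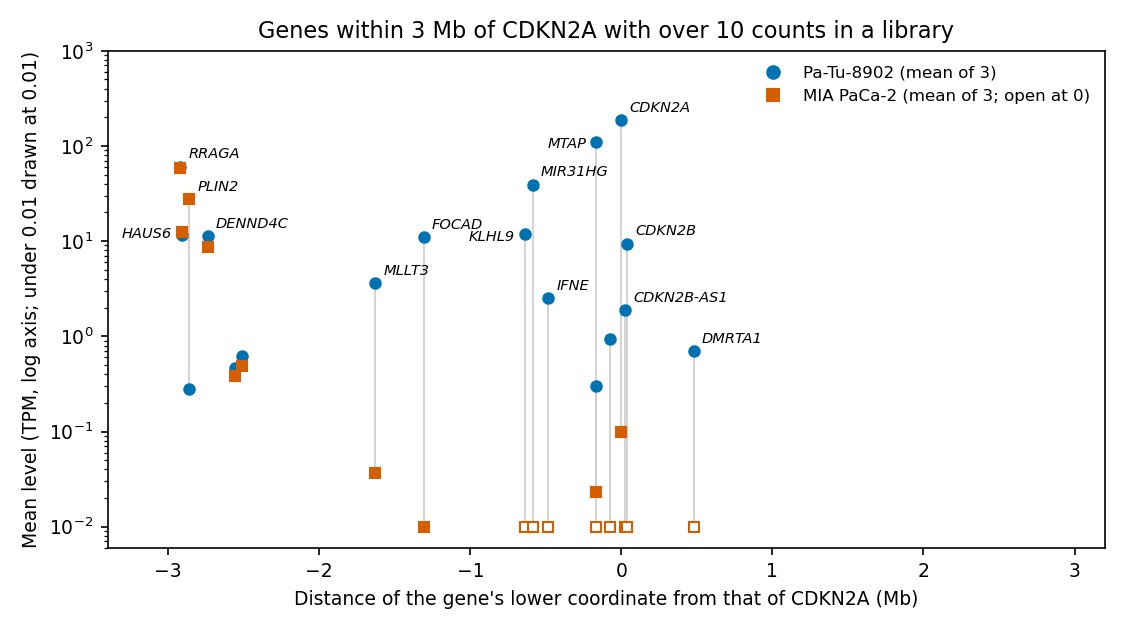
Mean TPM of genes within 3 Mb of the start of CDKN2A, by distance in Mb, on a log axis, for genes with over 10 counts in a library (values under 0.01 drawn at 0.01, open where 0). From -1.63 to 0.479 Mb MIA PaCa-2 lies at or below 0.1 TPM. Genes at -2.51 Mb and farther on the lower side are read in both lines, except that PLIN2 at -2.86 Mb is low in Pa-Tu-8902 (0.28 TPM against 27.7 TPM).

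Other driver genes of PDA were read in both lines with few exceptions. All 35 listed were tested, and 13 were higher in Pa-Tu-8902, 5 were higher in MIA PaCa-2 and 17 not called (51.4% called against 58.2%). SMAD4, a transducer of TGF-beta signals, was higher in MIA PaCa-2, at 50.7, 37.9 and 42.2 TPM against 22.2, 19.2 and 18.5 TPM in Pa-Tu-8902. CCND1, cyclin D1, was 183 to 208 TPM and 38.7 to 50.3 TPM. ARID1B, a SWI/SNF subunit, KDM6A, a histone demethylase, and TGFBR2, the type II TGF-beta receptor, were named after their values were seen. ARID1B was 21.9 ± 2.57 TPM in Pa-Tu-8902, KDM6A was 6.98 ± 1.62 TPM and TGFBR2 was 23.2 ± 0.40 TPM, and in MIA PaCa-2 the first and second were listed at 0 and TGFBR2 had at most 3 counts. MYC (89.4 ± 2.26 and 109 ± 7.15 TPM) was not called.

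Called genes were unevenly spread over chromosomes. On chromosomes 8, 11 and 13, 58.6%, 62.1% and 63.8% of tested genes were higher in Pa-Tu-8902 and 11%, 12% and 8.86% higher in MIA PaCa-2, against 28.9% and 29.3% over all genes. On chromosomes 18, X and 14 the shares were the reverse, with 17.5%, 18.4% and 12.3% higher in Pa-Tu-8902 and 63.7%, 52.8% and 45.8% higher in MIA PaCa-2. The median log2 fold change was 1.02 on chromosome 11 and -0.98 on chromosome 18. Neighboring genes were also called together: 27 runs of at least 10 consecutive tested genes were all higher in Pa-Tu-8902 against 15 all higher in MIA PaCa-2. Copy number was not measured and its part in these shares was not tested.

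The longest run, 23 genes higher in Pa-Tu-8902, lay at chr13:61409685-79556077 and held KLF5, a factor of epithelial progenitors. Another of 21 genes at chr11:68707440-71997597 held CCND1, ANO1, FADD, CTTN and the sterol enzyme DHCR7, with a median log2 fold change of 2.00. On the MIA PaCa-2 side the longest run, of 18 genes, lay at chr7:151207837-155005703 (median -1.86). A run of 14 genes at chr6:27807479-28137313 was made up mostly of histone genes and had a median of -3.51. Replication histone transcripts lack a poly(A) tail, and the libraries were made from poly(A) RNA, so these values may not stand for their level. SMAD4 and SMAD2 both lie on chromosome 18, and ESRP1 and GRHL2 on chromosome 8. The chromosome 18 median was -0.98 on the log2 scale, against -1.52 for SMAD4 and -0.83 for SMAD2. On chromosome 8 the median was 0.912, against 11.29 for ESRP1 and 12 for GRHL2. Whether position had a part in these differences was not tested.

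**Figure D5:**
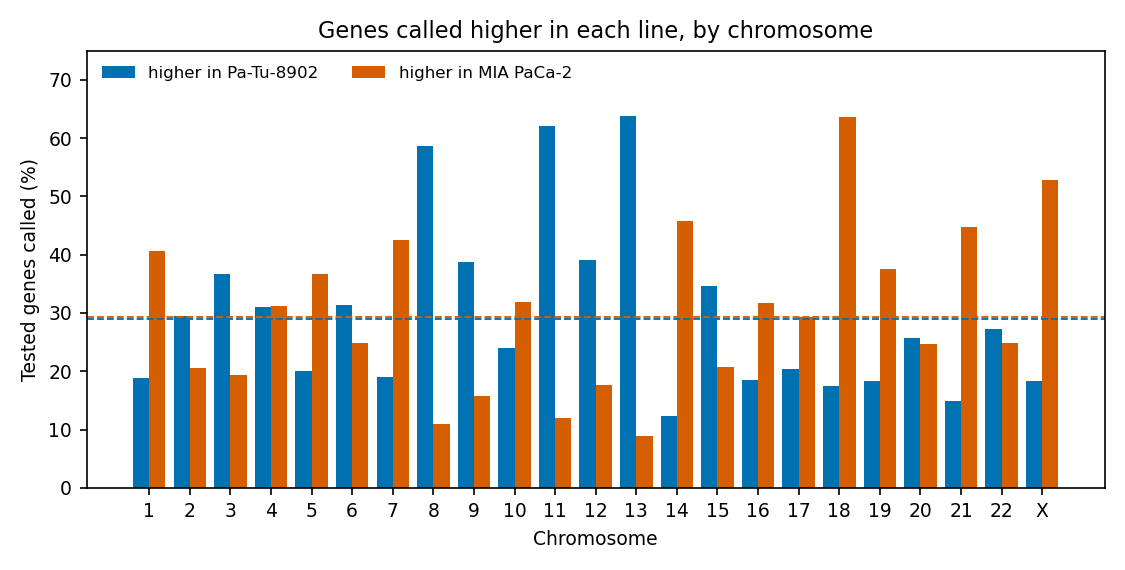
Percent of tested genes on each chromosome called higher in Pa-Tu-8902 or in MIA PaCa-2, as bars from 0. Chromosomes 8, 11 and 13 reach 58.6% to 63.8% on the Pa-Tu-8902 side and chromosome 18 reaches 63.7% on the MIA PaCa-2 side.

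Proliferation genes differed little between the lines. Of 36 tested, 4 were higher in Pa-Tu-8902, 4 were higher in MIA PaCa-2 and 28 not called (22.2% called against 58.2%), with a median absolute log2 fold change of 0.29 against 0.84 over all genes. MCM4 was higher in Pa-Tu-8902 by 0.92 ± 0.07 and MCM7, another subunit of the replicative helicase, lower by 0.84 ± 0.07 on the log2 scale.

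The dox-treated libraries were a separate set of 6 samples of the same lines, in which GOT1 had a mean of 3.83 TPM in Pa-Tu-8902 and 1.83 TPM in MIA PaCa-2. Of 15817 genes tested between the dox-treated lines 9381 (59.3%) were called. Of the 9068 genes called without dox 8817 were tested with dox, and 7571 (85.9%) were called again in the same direction and 43 in the opposite one. The 7571 genes made up 80.7% of the calls with dox. Of the named genes 165 were called without dox and tested with it, and 153 were called again in the same direction and 0 in the opposite one. Of the 169 genes read in Pa-Tu-8902 only, 134 stayed at or under 3 counts in every dox-treated MIA PaCa-2 library, and of the 104 read in MIA PaCa-2 only, 92 did so in Pa-Tu-8902. With dox CDH1 had a mean of 130 TPM in Pa-Tu-8902 and 0.08 TPM in MIA PaCa-2, VIM 2.93 and 3956 TPM, and PHGDH 0.237 and 57.6 TPM.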

How the data were processed

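Poly(A) RNA of 12 libraries was sequenced with a stranded kit. Per the labels and the paper's methods, the authors trimmed reads with Trimmomatic 0.39 and estimated levels with RSEM 1.3.1 and STAR 2.5.2a on GRCh38. The deposited gene table holds expected counts, which need not be whole, and the deposited TPM are levels per effective length, scaled to the same sum in each library. RSEM divides reads among near-identical copies, so GSTM, AKR1C, CBS, keratin, HLA, ferritin and histone genes are uncertain. Deposited FPKM and transcript tables were not used here.

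Expected counts were rounded, 45 gene IDs with 2 rows were summed, and genes reaching 10 counts in 3 or more of the 6 untreated libraries were tested with edgeR 4.0.16 (quasi-likelihood, TMM, R 4.3.3). SE was taken as the size of the log2 fold change over the square root of F. TPM served for levels only, so a TPM ratio can differ from the fitted fold. On simulated data of 15262 genes for this comparison, 200 of 200 genes changed by 2 on the log2 scale and 3 unchanged genes were called. Far fewer genes differed there than in the real libraries, where 58.2% were called, so error rates at that share were not tested. Figures were drawn with matplotlib 3.10.9 in Python 3.11.15. Depth set the floor of 3 counts.

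Named genes were a fixed set of key genes, in each direction the 10 most abundant genes read in 1 line only, the 10 largest differences among called genes (mean of at least 100 normalized counts, over 10 in every library), and up to 4 of the most abundant called members of each list. Most others are said to be named after their values were seen. Some outside these sets carry no such note, among them PSPH, NAMPT, ITGB1, MYC, KRT15, MX2, ERAP2, TMSB4X and the ribosomal protein genes. Genes and lists were chosen with earlier results of these data known. Alternatives were DESeq2 1.42.0, other scalings, filters and limits, a replicate block, and leaving out each library. Positions are from GENCODE release 44 on GRCh38. Some genes that the naming rule selects are not reported here.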

Additional observations from a re-analysis of the deposited data

Results flagged for a closer look

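Of 165 named genes called without dox and tested with it, 3 had lines that did not overlap in either condition, but in opposite directions. None of these 3 was called with dox, and the difference between conditions was not tested. Without dox the groups did not overlap for 81.7% of all tested genes. The syntaxin gene STX1A had a log2 fold change (Pa-Tu-8902 minus MIA PaCa-2) of 0.648 without dox and -0.321 with dox. IDH2, the mitochondrial NADP-dependent isocitrate dehydrogenase, had -1.09 without dox and 0.287 with dox. IFITM1, an interferon-induced membrane protein, had -1.01 without dox and 0.335 with dox.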

How the results depend on the processing

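Named genes tested numbered 170, and those other than GOT1 gave 2485 results under alternatives. Of these results 2453 kept their direction and call and 0 changed sign. A further 32 were no longer called, in 13 genes with small folds such as GATA4, STX1A and TPI1. With at least 10 counts required in every library, 197 list members were higher in Pa-Tu-8902 (309 otherwise), since genes silent in one line are then not tested. With a fold limit of 4, 3777 genes were called, 1982 higher in Pa-Tu-8902 against 1795 in MIA PaCa-2, and 182 and 91 list members. Genes read in 1 line only numbered 577 and 449 at a mean of at least 1 TPM, 17 and 8 at 100 TPM, and 79 and 30 when the other line had to be at 0 counts. The median of the NAD synthesis list was -0.241 with no filter on low counts and 0.711 otherwise. Without single libraries, called genes numbered 8845 to 9013, with 4452 to 4633 higher in Pa-Tu-8902 against 4245 to 4509 in MIA PaCa-2, GOT1 differed by 0.744 to 0.869, and genes read in 1 line only numbered 166 to 183 and 102 to 141, the last without Pa-Tu-8902 replicate 3. Libraries shared only a replicate number (correlations of deviations from -0.0932 to -0.0251), and with a replicate block 8882 genes were called. DESeq2 called 8900. Over all settings 3777 to 11374 genes were called, the highest with no fold limit. Scaling moved the median of 30 of 33 lists by under 0.1.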

Other observations

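The most abundant transcripts were shared between the lines but not at equal levels. TMSB4X, which encodes the actin-binding thymosin beta 4, had a mean of 3981 TPM in Pa-Tu-8902 and 20170 TPM in MIA PaCa-2. EEF1A1, a translation elongation factor, had means of 11430 and 13250 TPM. Among ribosomal protein genes the levels went both ways: RPL7 was 7559 TPM in Pa-Tu-8902 and 3557 TPM in MIA PaCa-2, and RPS3 was 7218 and 2510 TPM. RPS23 was 3251 and 8262 TPM, and RPS27 was 2775 and 7427 TPM. Ribosomal protein genes have many processed pseudogenes, and the division of reads among such copies was not tested.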
